A study of Mus musculus with 6 samples.

Results

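The genes described here encode the mitochondrial solute carriers of the Slc25 family and were read on expression arrays of shPARP2 and scPARP2 C2C12 cells. Carriers were all probe sets that name only 1 gene with a symbol starting with Slc25a, together with Ucp1. The brightest probe set (mean of the 6 arrays) stood for a gene. This gave 47 carriers among 19938 genes. Ucp2 was not analysed here. C2C12 cells are myoblasts of a mouse line. They had received lentiviruses at a multiplicity of infection of 40 that carried an shRNA against PARP2 (shPARP2) or a scrambled shRNA (scPARP2). Both lines were kept under puromycin, grew in DMEM with fetal calf serum and gave 3 samples each. From every sample, 250 ng of total RNA was hybridized to 1 Affymetrix GeneChip Mouse Gene 1.0 ST array. The silenced state rests on 1 interfering sequence, and no source used here says whether a line is a clone or whether its samples were separate cultures. The p-values therefore rest on sample-to-sample spread alone, and that spread may be technical.

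Most SLC25 carriers are proteins of the inner mitochondrial membrane that exchange nucleotides, phosphate, keto acids, amino acids, cofactors and iron between the cytosol and the matrix. They mostly work as exchangers that alternate between an open state on either side. In muscle the ADP/ATP carriers and the phosphate carrier feed the ATP synthase, and the aspartate/glutamate and oxoglutarate carriers run the malate-aspartate shuttle. The uncoupling proteins belong to the same family, and UCP1 lets protons pass back to the matrix.

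PARP2 mRNA was lower in the silenced line. The Parp2 probe set read 8.94, 9.13 and 9.05 on the log2 scale in scPARP2 and 7.86, 8.14 and 7.91 in shPARP2 cells, which left 47.6% of the signal. All 6 myoblast markers (Myod1, Myf5, Des, Cdh15, Chrna1 and Itga7) had a signal above the median of all probe sets. The 3 adipocyte, 4 endothelial and 4 epithelial markers measured were below it, and of the 3 macrophage and leukocyte markers Cd68 was above it and was lower in shPARP2 cells (log2 fold change -0.72, limma adjusted p = 0.00119). The 6 myotube markers (Myog, Myh3, Acta1, Ckm, Tnnt3 and Mymk) were also all above this median, and they were higher in shPARP2 cells. Their mean log2 signal ran from 9.50 to 9.64 on the scPARP2 arrays and from 10.50 to 10.78 on the shPARP2 arrays. Myoblast markers moved as well, with 5 of 6 higher and means from 10.61 to 10.68 against 10.99 to 11.42. The part of this difference in the results on carriers was not tested. A lower share of cells of a given state and less RNA per cell cannot be told apart in such samples. What silencing changed and what else sets the lines apart cannot be told apart either. The arrays of shPARP2 cells varied more. Over the carriers the median SD was 0.137 in shPARP2 and 0.0538 in scPARP2 cells.

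Carriers moved in both directions in shPARP2 cells. At an adjusted p under 0.05 in limma, 8 rose (Slc25a25, Slc25a33, Slc25a38, Slc25a29, Slc25a32, Slc25a15, Slc25a36 and Slc25a43), 7 fell (Slc25a27, Slc25a10, Slc25a4, Slc25a51, Slc25a44, Slc25a39 and Slc25a45) and 32 did not pass the test. The called carriers were 31.9% of the 47, against a background of 24% of all genes. Of all genes 12.4% were higher and 11.6% lower, against 17.0% and 14.9% of the carriers. The called carriers changed by 1.25-fold to 1.86-fold, and none reached 2-fold. At least 1.5-fold was reached by 5 (Slc25a27, Slc25a10, Slc25a4, Slc25a25 and Slc25a33), against 10.1% of all genes. The arrays of both lines did not overlap for 25 carriers or 53.2%, against 42.1% of all genes. This share was not counted for genes of like brightness. The median log2 fold change of the carriers was 0.06, beside -0.02 over all genes. Without scPARP2 replicate 1, 2 or 3 the higher carriers numbered 3, and without shPARP2 replicate 1 they numbered 5. The lower carriers then numbered 6, 5, 6 and 7.

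**Figure D1:**
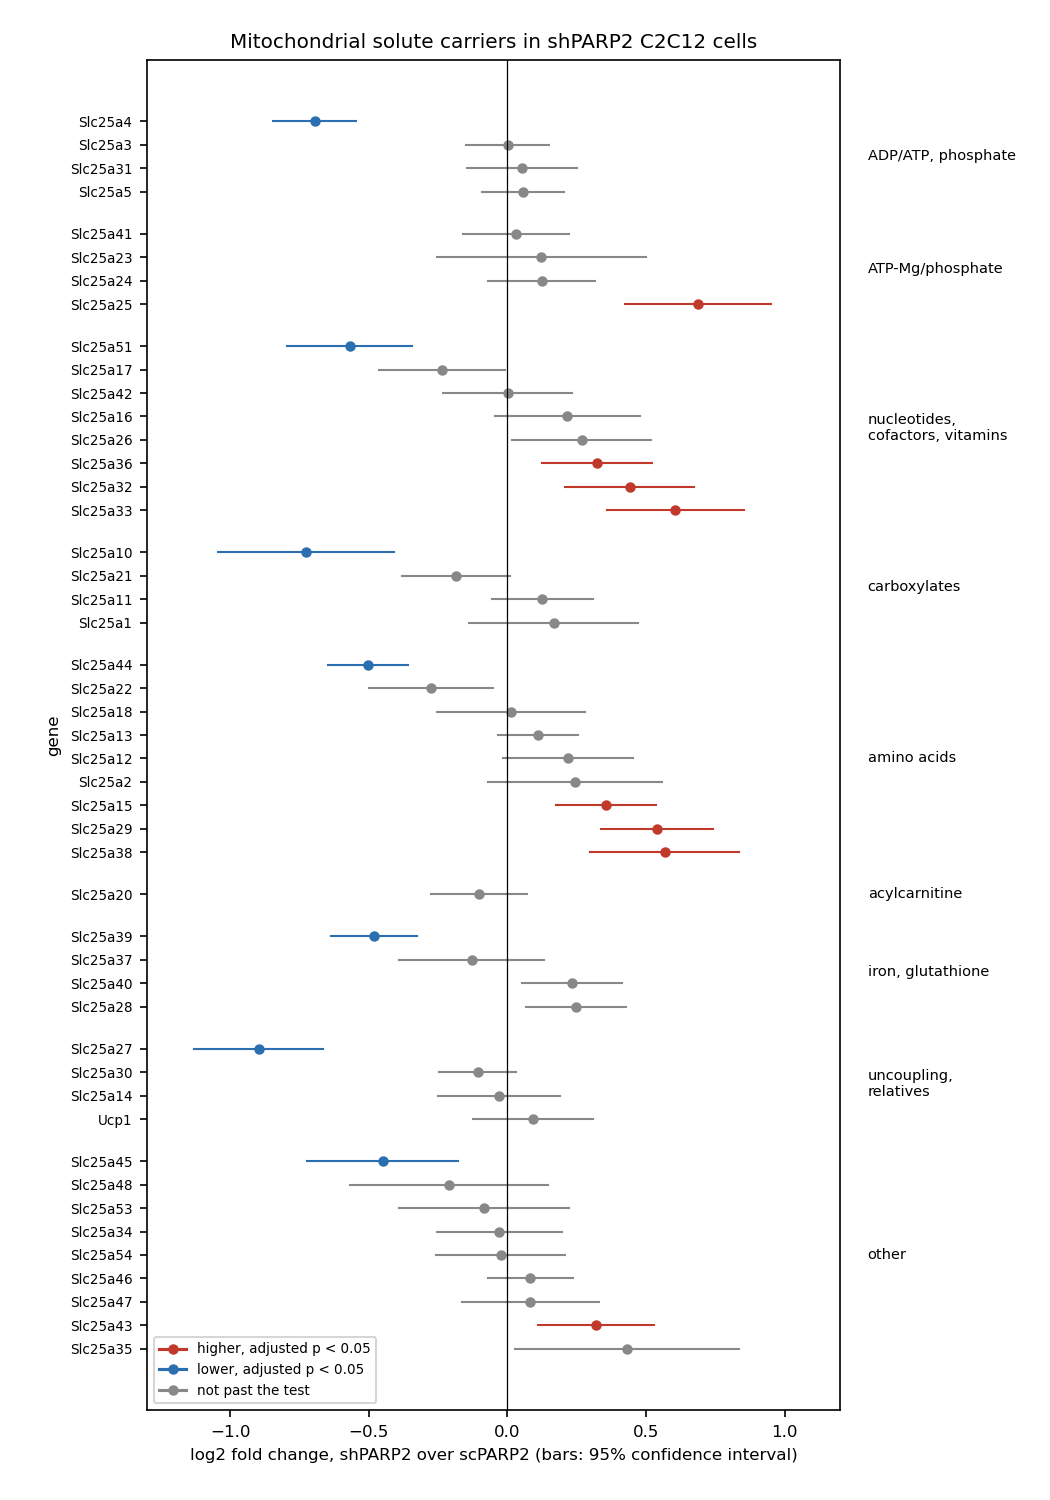
Log2 fold change, shPARP2 over scPARP2 (horizontal axis), for each of the 47 carriers (vertical axis), grouped by what they carry. Each point is the limma estimate from 6 arrays, with a bar for the 95% confidence interval; the 7 blue genes are lower, with Slc25a27 at -0.90 the farthest left, the 8 red genes are higher, up to Slc25a25 at 0.69, and the 32 grey genes did not pass the test.

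None of the carriers that passed the test was dim, but bright ones also failed to pass. Among these were Slc25a5 at the 98.9th percentile of signal and Slc25a3 at the 98.6th. All 15 called carriers were at or above the median signal of all probe sets, where 35 carriers lay and 42.9% of them passed. Over all genes of that brightness 38.7% passed, so the share of the carriers was near this background. None of the 12 dimmer carriers passed, and over all dimmer genes 4.81% did. Ucp1, the proton carrier of brown fat, was among the dim ones, at the 23.9th percentile of signal. It read 5.66, 5.77 and 5.85 in scPARP2 and 5.99, 5.78 and 5.79 in shPARP2 cells. The groups overlapped, and the log2 fold change was 0.09 (standard error, SE, 0.09, limma adjusted p = 0.584).

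**Figure D2:**
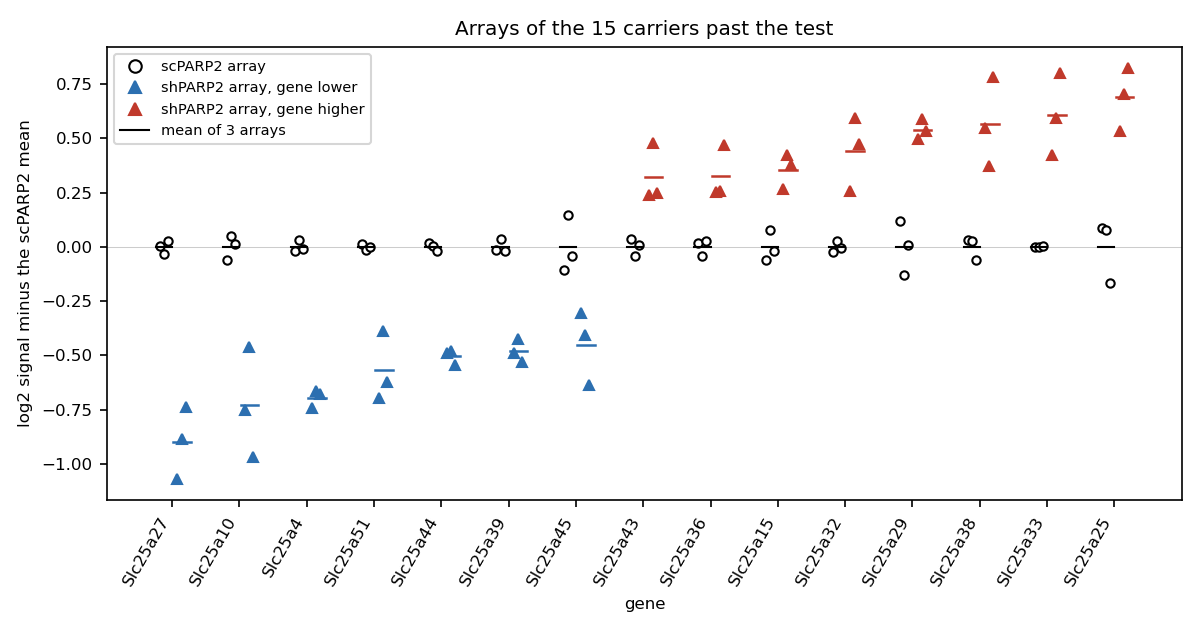
Array by array log2 signal of the 15 called carriers, with the scPARP2 mean of each gene set to 0 (vertical axis). Triangles stand for shPARP2 arrays, circles for scPARP2 arrays and bars for means of 3; in all 15 genes the triangles lie apart from the circles, from -0.90 on average for Slc25a27 to 0.69 for Slc25a25.

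Upstream sequences are shown for 2 carriers that fell and 2 that rose, so that genes of opposite change can be read side by side. RefSeq windows (GRCm38.p6) were at hand for 37 of the 47 carriers, as 47 windows since some genes have several starts, and the 250 bases before each start were searched on both strands. The windows printed are chr8:46211063-46211312 (minus strand) for Slc25a4, chr11:120491587-120491836 (plus strand) for Slc25a10, chr12:108835877-108836126 (minus strand) for Slc25a29 and chr4:149774268-149774517 (minus strand) for Slc25a33. They run 5′ to 3′ along the gene, and capitals mark every match to a searched motif.
Slc25a4: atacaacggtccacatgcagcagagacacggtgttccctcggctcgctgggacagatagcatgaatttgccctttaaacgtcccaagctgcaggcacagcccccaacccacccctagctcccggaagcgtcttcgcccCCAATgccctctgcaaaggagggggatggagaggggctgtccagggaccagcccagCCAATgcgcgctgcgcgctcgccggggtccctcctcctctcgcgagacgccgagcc
Slc25a10: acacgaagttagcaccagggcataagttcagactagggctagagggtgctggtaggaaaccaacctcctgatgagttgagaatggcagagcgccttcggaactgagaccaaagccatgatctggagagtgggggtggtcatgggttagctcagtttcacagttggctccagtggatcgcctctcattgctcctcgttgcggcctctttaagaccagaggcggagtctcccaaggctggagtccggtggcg
Slc25a29: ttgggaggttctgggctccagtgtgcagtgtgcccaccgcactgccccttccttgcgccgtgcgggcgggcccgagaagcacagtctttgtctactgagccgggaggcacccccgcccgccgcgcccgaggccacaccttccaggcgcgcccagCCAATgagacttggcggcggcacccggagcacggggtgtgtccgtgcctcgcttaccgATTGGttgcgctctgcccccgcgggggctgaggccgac
Slc25a33: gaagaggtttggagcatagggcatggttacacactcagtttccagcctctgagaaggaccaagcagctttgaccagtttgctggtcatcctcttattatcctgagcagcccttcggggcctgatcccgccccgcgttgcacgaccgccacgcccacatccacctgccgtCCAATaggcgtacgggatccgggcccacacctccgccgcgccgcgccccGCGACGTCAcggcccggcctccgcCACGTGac

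The letters searched were GCGC, any 2 bases and GCGC again (NRF1 site), TGACNNNGC (core of the antioxidant response element), CACGTG and CAGCTG (E-boxes, which read the same on both strands), AAGGTCA (half-site of estrogen-related receptors) and CCAAT. No matches overlap in the printed windows. The Slc25a10 window holds none of these letters. Slc25a4 and Slc25a29 each hold the CCAAT box in 2 places, and Slc25a33 holds CCAAT, the antioxidant core and CACGTG. The antioxidant core was in 19.1% of carrier windows and 10.2% of the 32851 windows of all genes. Counted by gene, 7 of the 37 carriers with a window held it. These included 3 of the 7 higher carriers with a window (Slc25a25, Slc25a33 and Slc25a38) and none of the 4 lower ones with a window. The other carriers that held it were not called. CACGTG was in 17.0% of carrier windows against 6.02%, and also in 7 of the 37 carriers. It too was in 3 of the 7 higher carriers (Slc25a15, Slc25a33 and Slc25a36) and none of the 4 lower ones, and the others with it were not called. CCAAT was in 44.7% against 33.8%, and in 18 of the 37 carriers, with 4 of the 7 higher and 1 of the 4 lower. A link between a motif and the direction of change was not tested, and the shares over all genes were counted by window and not by gene. The NRF1 site (4.26% against 4.98%), CAGCTG (8.51% against 13.0%) and AAGGTCA (2.13% against 4.08%) were in no window of the 11 called carriers that have one (7 higher and 4 lower). The carrier windows had a median of 57.6% G and C, against 52.4% over all windows. A match is a description of sequence and no measured binding.

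Among the carriers of ADP, ATP and phosphate, Slc25a4 fell and the other 3 did not pass the test. The called share was 25% in this group, against 24% of all genes. It was also 25% for ATP-Mg/phosphate, for carboxylates, for iron and glutathione and for the uncoupling proteins with their relatives. For the carriers with less settled substrates it was 22.2%. Slc25a4 encodes ANT1, the ADP/ATP carrier that prevails in heart and skeletal muscle. It was one of the brightest carriers and read 12.99, 13.05 and 13.00 in scPARP2 cells and 12.27, 12.35 and 12.34 in shPARP2 cells. The lines lay far apart and the arrays within a line close together. The log2 fold change was -0.70 (SE 0.06, limma adjusted p = 0.000922), or 1.62-fold lower, and it stayed past the test without any one array. Slc25a5, which encodes the ANT2 form of dividing cells, read 12.98, 12.98 and 12.97 in scPARP2 and 13.01, 13.00 and 13.09 in shPARP2 cells, and its log2 difference was 0.06 (adjusted p = 0.627 from limma). Its 95% confidence interval ran from -0.09 to 0.20. The 3 single-gene probe sets of Slc25a5 had adjusted p-values from 0.488 to 0.627. Slc25a3, the phosphate carrier, had a log2 fold change of 0.0017 (95% confidence interval -0.15 to 0.15). Slc25a31, the ADP/ATP carrier of the male germ line, was dim, at the 9.26th percentile, with 0.05.

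Of the ATP-Mg/phosphate carriers, which shift the adenine nucleotide pool of the matrix and are mostly controlled by calcium, Slc25a25 rose and the other 3 did not pass the test. Slc25a25 read 7.81, 7.80 and 7.56 in scPARP2 and 8.26, 8.43 and 8.55 in shPARP2 cells. No arrays of the lines overlapped. Its log2 fold change of 0.69 (SE 0.11, limma adjusted p = 0.00718) was the highest of all carriers, and the call held without any one array. Slc25a24 and Slc25a23 had log2 fold changes of 0.12 each, with adjusted p-values of 0.383 and 0.688. The arrays of Slc25a23 were widely spread in shPARP2 cells (SD 0.317, n = 3). Slc25a41, which lacks the calcium-binding part, had 0.03.

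Of the 8 carriers of nucleotides, cofactors and vitamins, 3 rose and 1 fell. The called share was 50%, against 24% of all genes. Of genes at or above the median signal, where all 8 lay, 38.7% were called. Slc25a33 and Slc25a36 encode carriers of pyrimidine nucleotides, which supply the synthesis of mitochondrial DNA and RNA. Slc25a33 read 9.12, 9.12 and 9.13 in scPARP2 and 9.55, 9.72 and 9.92 in shPARP2 cells, and its log2 difference was 0.61 (SE 0.10, limma adjusted p = 0.00923). All shPARP2 arrays were above the tight scPARP2 values, and the call held without any one array. Slc25a36 had a log2 fold change of 0.32 (adjusted p = 0.0391 from limma) on its brighter probe set (10479979), while the dimmer one (10595856) had 0.06 (adjusted p = 0.784), so its call depends on the probe set. Over all probe sets 18.5% passed. It was lost without any one scPARP2 replicate or shPARP2 replicate 1 (adjusted p up to 0.143) and with the replicate number as a block (limma adjusted p = 0.0734). Slc25a32, the folate and FAD carrier, read 9.79, 9.84 and 9.81 in scPARP2 and 10.07, 10.40 and 10.28 in shPARP2 cells. The groups did not overlap, and the log2 fold change was 0.44 (SE 0.10, limma adjusted p = 0.0238). The call ended without any one scPARP2 replicate or shPARP2 replicate 3 (adjusted p up to 0.0903).

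Slc25a51, which carries NAD into the matrix, was the member of this group that fell. It read 10.04, 10.01 and 10.02 in scPARP2 and 9.33, 9.64 and 9.40 in shPARP2 cells. Each shPARP2 array was below every scPARP2 array. The log2 fold change was -0.57 (SE 0.09, limma adjusted p = 0.00832), and the call held without any one array. The other 4 did not pass. Slc25a26, which carries S-adenosylmethionine, had 0.27 (adjusted p = 0.142) and Slc25a17, a carrier of the peroxisome, had -0.24 (adjusted p = 0.153), and the lines did not overlap in either. Slc25a16 had 0.22, and Slc25a42, a carrier of coenzyme A, had 0.0016.

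Of the 4 carriers of di-, tri- and oxocarboxylates, Slc25a10 fell. It encodes the dicarboxylate carrier, which exchanges malate and succinate for phosphate. It read 9.27, 9.38 and 9.34 in scPARP2 and 8.58, 8.87 and 8.36 in shPARP2 cells. The shPARP2 arrays were all lower but unequal (SD 0.255). The log2 fold change was -0.73 (SE 0.13, limma adjusted p = 0.0118), and it narrowly missed the threshold without scPARP2 replicate 2 (adjusted p = 0.0518). Slc25a21, the oxodicarboxylate carrier, was dim and had -0.19 (adjusted p = 0.189 from limma). Slc25a1, which exports citrate for lipid synthesis, had 0.17 and Slc25a11, the oxoglutarate/malate carrier, had 0.13, with adjusted p-values of 0.464 and 0.343.

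The 9 carriers of amino acids split into 3 that rose, 1 that fell and 5 that did not pass. The called share was 44.4%, against 24% of all genes and 38.7% of genes at or above the median signal. Of the 9, 3 lay below that median. Slc25a38 imports glycine for heme synthesis and read 9.61, 9.61 and 9.52 in scPARP2 and 10.13, 9.95 and 10.36 in shPARP2 cells. The groups did not overlap, and the log2 fold change was 0.57 (SE 0.11, limma adjusted p = 0.0158). The call was lost without any one scPARP2 replicate or shPARP2 replicate 1 (adjusted p up to 0.0696). Slc25a29, the carrier of basic amino acids, read 7.92, 7.66 and 7.80 in scPARP2 and 8.29, 8.38 and 8.33 in shPARP2 cells. Here the shPARP2 arrays were the more uniform ones. The log2 fold change was 0.54 (SE 0.08, limma adjusted p = 0.00657), and the call held without any one array. Slc25a15, the ornithine carrier of the urea cycle, had a log2 fold change of 0.36 (adjusted p = 0.0204 from limma) and lost its call without any one scPARP2 replicate (adjusted p up to 0.0934).

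Slc25a44, which carries branched-chain amino acids, was the amino acid carrier that fell. It read 10.79, 10.77 and 10.75 in scPARP2 and 10.28, 10.29 and 10.23 in shPARP2 cells. Both lines were tight and well apart, with a log2 fold change of -0.50 (SE 0.06, limma adjusted p = 0.00252) that stayed past the test without any one array. The aspartate/glutamate carriers Slc25a12 and Slc25a13 had 0.22 and 0.11 (adjusted p = 0.197 and 0.298 from limma), and the lines did not overlap in either. The glutamate carriers Slc25a22 and Slc25a18 had -0.28 (adjusted p = 0.0964 from limma) and 0.01. Slc25a2, an ornithine carrier, was dim and had 0.24 (adjusted p = 0.282 from limma).

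Of the iron and glutathione carriers, Slc25a39 fell and the other 3 did not pass. Slc25a39 imports glutathione into the matrix, as does its relative Slc25a40. It read 11.75, 11.81 and 11.75 in scPARP2 and 11.28, 11.35 and 11.24 in shPARP2 cells. The groups stood apart, with a log2 fold change of -0.48 (SE 0.06, limma adjusted p = 0.00369), and the call held without any one array. Slc25a40 read 9.06, 9.06 and 9.06 in scPARP2 and 9.20, 9.27 and 9.41 in shPARP2 cells, and its log2 difference was 0.23 (adjusted p = 0.0847 from limma). Its dimmer probe set had 0.16 (adjusted p = 0.433). The mitoferrins bring iron to the matrix for heme and iron-sulfur clusters. Slc25a28 (mitoferrin 2) had 0.25 and was the carrier just outside the threshold (adjusted p = 0.0713 from limma), which it passed in 6 of the processing alternatives, and Slc25a37 (mitoferrin 1) had -0.13 (adjusted p = 0.514 from limma).

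Of the uncoupling proteins and their near relatives, Slc25a27 fell and Slc25a14, Slc25a30 and Ucp1 did not pass the test. Slc25a27, also called UCP4 and known best from the brain, read 8.50, 8.46 and 8.52 in scPARP2 and 7.43, 7.61 and 7.76 in shPARP2 cells. This was the largest difference of any carrier, at a log2 fold change of -0.90 (SE 0.10, limma adjusted p = 0.00173) or 1.86-fold lower, and the call held without any one array. Slc25a30 was bright, at the 95.9th percentile, and had -0.11 (adjusted p = 0.292 from limma) with lines that did not overlap. Slc25a14, also called UCP5, had -0.03. Ucp3, the uncoupling protein of skeletal muscle, falls outside the naming rule and had 0.03 (adjusted p = 0.907 from limma). Slc25a20, the carnitine/acylcarnitine carrier of fatty acid oxidation, had -0.10 (95% confidence interval -0.27 to 0.07, adjusted p = 0.427 from limma).

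In the remaining group of 9 carriers, whose substrates are less settled, Slc25a45 fell and Slc25a43 rose. Slc25a45 read 7.92, 8.17 and 7.99 in scPARP2 and 7.72, 7.62 and 7.39 in shPARP2 cells, and its log2 difference was -0.45 (SE 0.11, limma adjusted p = 0.0381). Slc25a43 had 0.32 and was the carrier just inside the threshold (adjusted p = 0.0485 from limma). Both calls were fragile. That of Slc25a45 was kept when shPARP2 replicate 1 was left out and lost without each other array (adjusted p up to 0.128) and with quantile normalization, centring or the replicate number as a block (limma adjusted p = 0.0664 with the block). That of Slc25a43 was kept without shPARP2 replicate 2 and lost without each other array (adjusted p up to 0.165) and with centring or the block (limma adjusted p = 0.113 with the block). Slc25a35 had 0.43 with a wide interval from 0.03 to 0.84 (adjusted p = 0.144 from limma). Slc25a46, a protein of the outer membrane that shapes mitochondria, had 0.08. The other 5 (Slc25a34, Slc25a47, Slc25a48, Slc25a53 and Slc25a54) lay between -0.21 and 0.08, with adjusted p-values from 0.427 to 0.913.

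Pairs of related carriers show how far close relatives differed in their change. The within-array difference of log2 signals was compared between the lines for 10 pairs of related carriers, with an exact two-sided permutation test over the 6 arrays, which cannot go below p = 0.1. This smallest p was reached by 6 pairs (0.167 after adjustment over the 10). On the log2 scale the change of Slc25a4 minus that of Slc25a5 was -0.75, and that of Slc25a39 minus Slc25a40 was -0.71. For Slc25a24 minus Slc25a25 it was -0.57. The mitoferrins Slc25a37 and Slc25a28 gave -0.38, and Slc25a34 and Slc25a35 gave -0.46. For Slc25a34 and Slc25a35 the within-array difference was widely spread in shPARP2 cells (SD 0.488, against 0.053 for Slc25a4 and Slc25a5). The pyrimidine nucleotide carriers Slc25a33 and Slc25a36 gave 0.28. This pair was read on the brighter Slc25a36 probe set, where that carrier was called higher, and its dimmer probe set was not called. The pairs Slc25a12 and Slc25a13 (0.11), Slc25a14 and Slc25a30 (0.08), Slc25a22 and Slc25a18 (-0.29) and Slc25a23 and Slc25a24 (-0.0010) had exact p-values of 0.5, 0.4, 0.3 and 1. With 6 arrays the exact test could not bring any pair past the threshold.

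**Figure D3:**
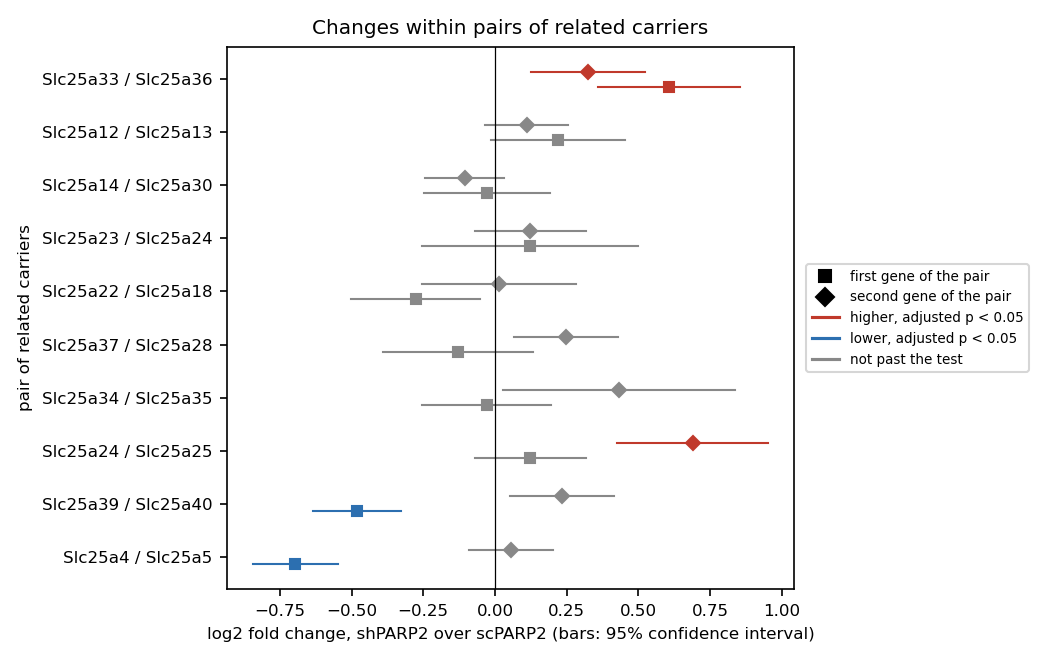
Log2 fold change between shPARP2 and scPARP2 cells (horizontal axis) of both genes in 10 pairs of related carriers (vertical axis). Squares are the first and diamonds the second gene of a pair, bars 95% confidence intervals and colours the limma call; Slc25a4 at -0.70 lies apart from Slc25a5 at 0.06, and Slc25a39 at -0.48 from Slc25a40 at 0.23.

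Genes that work with the carriers also moved both ways. Of 63 such genes measured, 15 rose, 8 fell and 40 stayed short of the limma threshold. The called share was 36.5%, against 24% of all genes and 38.7% of genes at or above the median signal, where all but 6 of the 63 lay. It was therefore near the background of genes of that brightness. The median log2 fold change was 0.08, beside -0.02 over all genes. Without any one scPARP2 replicate the higher ones numbered 8 and the lower ones 4, and without shPARP2 replicate 1 the lower ones numbered 5. Of 3 relatives of the carrier family (Ucp3, Mtch1 and Mtch2), none passed the test, and their log2 fold changes lay between 0.01 and 0.20.

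Of 8 genes that bring carriers into the inner membrane, 2 rose and 2 fell. The called share was 50%, against 24% of all genes. Of genes at or above the median signal, where all 8 lay, 38.7% were called. Timm8a1, a small chaperone of the space between the membranes, had a log2 fold change of 0.97 (adjusted p = 0.00107 from limma), and Timm22, the pore of the carrier translocase, one of 0.25 (adjusted p = 0.0411 from limma). Agk, a lipid kinase that is also a subunit of this translocase, had -0.49 (adjusted p = 0.00598 from limma). Timm8b, another small chaperone, had -0.26 (adjusted p = 0.0423 from limma), and it is named beyond the 3 set per list so that all 4 are given.

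Of 15 other mitochondrial channels and transporters, 4 rose and 5 fell. The called share was 60%, against 24% of all genes. Of genes at or above the median signal, where all but 1 of the 15 lay, 38.7% were called. The serine carrier Sfxn1 (-0.65) and its relative Sfxn2 (-0.49) were lower. Mcu, the pore of the calcium uniporter, was higher (0.58). The adjusted p-values of these 3 were 0.00176, 0.00953 and 0.00235 from limma. The pyruvate carrier subunit Mpc1 (0.34) and the outer membrane channels Vdac1 (0.33) and Vdac3 (0.27) also rose, and Micu2 (-0.39), Slc8b1 (-0.36) and Sfxn5 (-0.36) also fell; these 6 are named after their values were seen.

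Enzymes that share substrates with the carriers are named here because they passed the test. The called share was 14.3% of the shuttle genes, 40% for citrate, 42.9% for one-carbon and serine and 20% for the carnitine shuttle. It was 24% over all genes and 38.7% over genes at or above the median signal. Of 7 shuttle genes only Got2, the mitochondrial aspartate aminotransferase, passed (0.48, adjusted p = 0.00339 from limma). Of 5 genes of citrate supply and use, Acly, which splits exported citrate (0.97), and Me1, malic enzyme (0.41), rose, with adjusted p-values of 0.00266 and 0.00583 from limma. Of 7 genes of one-carbon and serine metabolism, Mthfd1l (0.77), Mthfd2l (0.72) and Mthfd2 (0.34), folate enzymes of the mitochondrion, rose and 4 did not pass. The folate carrier Slc25a32 stood at 0.44 on the same scale. Of 5 genes of the carnitine shuttle, Cpt2, the inner carnitine palmitoyltransferase, fell (-0.47, adjusted p = 0.0244 from limma).

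Of 8 genes of heme and iron-sulfur cluster synthesis, Cpox, coproporphyrinogen oxidase, rose from 10.26 ± 0.04 to 11.60 ± 0.23 (SD, n = 3 arrays per line), which is a log2 fold change of 1.34 (adjusted p = 0.000966 from limma), and the other 7 lay between -0.20 and 0.13. Of 6 adenylate and creatine kinases, the cytosolic creatine kinases Ckb (0.54) and Ckm (0.30) rose, with adjusted p-values of 0.0451 and 0.0492 from limma. Ckm is also one of the myotube markers, all of which were higher in shPARP2 cells. The called share was 12.5% of the heme and iron-sulfur cluster genes and 33.3% of the kinases. It was 24% over all genes and 38.7% over genes at or above the median signal.

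**Figure D4:**
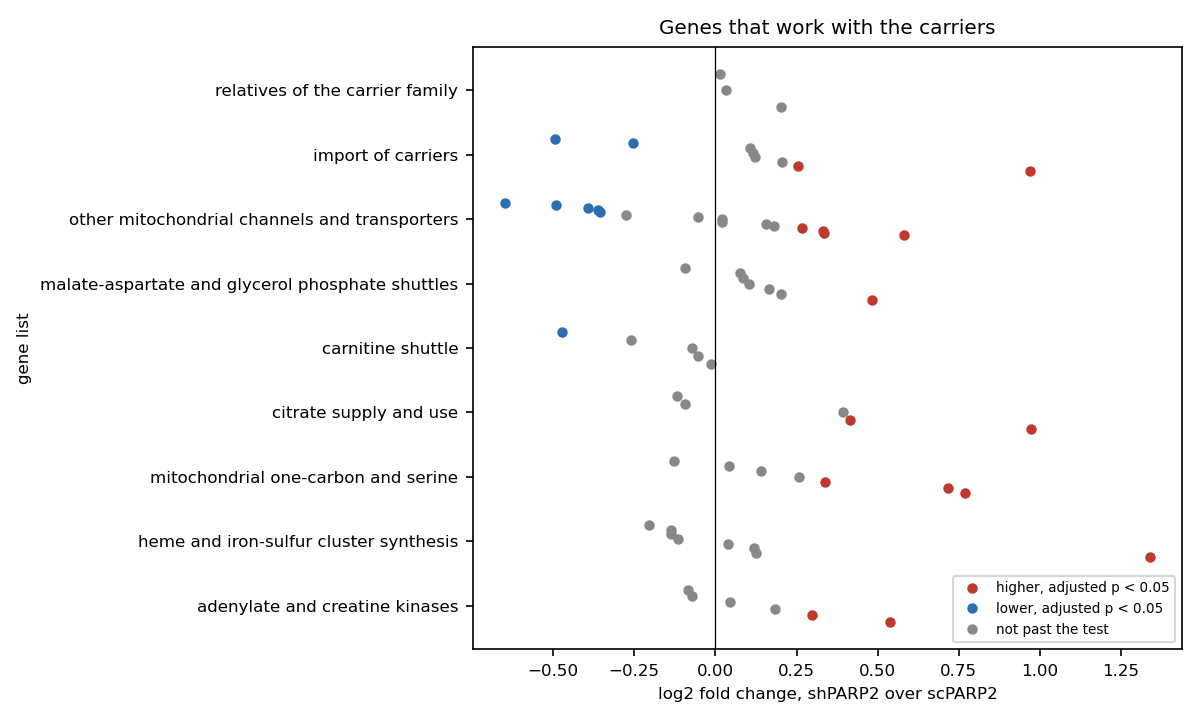
Log2 fold change between shPARP2 and scPARP2 cells (horizontal axis) of genes that work with the carriers, by list (vertical axis); Mdh1 stands in 2 lists. Each point is 1 gene from 3 arrays against 3, red if higher and blue if lower in limma; the values run from -0.65 for Sfxn1 to 1.34 for Cpox.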

How the data were processed

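Total RNA of 3 scPARP2 and 3 shPARP2 samples was measured on 1 array each. Deposited values are log2 signals of 35556 probe sets that the authors obtained with RMA, as the submitters' processing notes name it. Its version and settings are not given in the sources consulted. RMA scales the arrays to each other, so a change shared by all genes would be lost. Names came from the platform annotation: 21789 probe sets name 1 gene and 1621 several. Differences were fitted by lmFit and eBayes of limma 3.58.1 (R 4.3.3) without covariates, following the published methods. P-values were adjusted by Benjamini-Hochberg across all probe sets with a threshold of 0.05, and the calculation was tested on simulated data. Arrays give no read depth; their number limits the precision. Same-numbered replicates did not deviate together, with r of -0.05, 0.09 and 0.01, and were not paired.

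The carriers, lists and tests were chosen with earlier results of these data known. All 47 carriers are accounted for. Values per array are given for Ucp1 and the 12 called carriers with the largest change, and for a few pair partners. Partner genes are up to 3 per list with the largest change past the test. Matplotlib 3.10.9 drew the figures. Alternatives were quantile normalization, centring, leaving out dim probe sets (under the 40th percentile), keeping single-gene probe sets, a trended robust variance, array weights, a replicate block, stricter thresholds (0.01, 1.5-fold), averaged probe sets per gene, membership by current symbol and leaving out each array.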

Additional observations from a re-analysis of the deposited data

How the results depend on the processing

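No called carrier changed direction under any alternative run. All 15 calls were kept with dim probe sets left out, among single-gene probe sets only, with a trended robust variance and with array weights. Quantile normalization kept 14 and lost Slc25a45. Averaging the probe sets of a gene kept 14 and lost Slc25a36. With centring 13 were kept. Other carriers passed in some of these 7 settings, namely Slc25a28 in 6 (all but quantile normalization), Slc25a22 in 4 (dim probe sets left out, single-gene probe sets, array weights, averaged probe sets), Slc25a40 in 2 (dim probe sets left out, single-gene probe sets) and Slc25a17 and Slc25a35 with array weights, which gave 10 higher and 9 lower carriers. With the replicate number as a block 12 carriers kept their call and Slc25a45, Slc25a43 and Slc25a36 lost it. Under the block 8 partner genes were higher in place of 15. The numbers are not known to pair the samples. Replicate 2 of scPARP2 correlated best with replicate 2 of shPARP2 (r = 0.09), while scPARP2 replicates 1 and 3 did not correlate best with their own number. At an adjusted p under 0.01, 3 carriers were higher, and 8 partner genes were higher and 4 lower. With a change of at least 1.5-fold as well, 2 carriers were higher and 3 lower, and 5 partner genes were higher and 1 lower; both settings are stricter by construction. Leaving out each array in turn gave 3 to 9 higher and 5 to 8 lower carriers, and 8 to 13 higher and 4 to 9 lower partner genes. In these fits 8 carriers (Slc25a27, Slc25a4, Slc25a51, Slc25a44, Slc25a39, Slc25a29, Slc25a33 and Slc25a25) were called each time. The pair Slc25a23 and Slc25a24, at -0.0010, turned to 0.0246 with quantile normalization; the cause was not tested. The median over the carriers stayed between 0.03 and 0.09. Dim signal limits what can be called for the 12 carriers below the median.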
